A study of Mus musculus with 4 samples.

Results

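The *Egr*, *Nr4a*, *Ier*, *Atf3* and *Dusp1* genes are immediate early genes outside the AP-1 (Fos and Jun) family. The 10 genes described here, of 23906 gene symbols listed in every sample, are *Egr1*, *Egr2*, *Egr3*, *Nr4a1*, *Nr4a2*, *Atf3*, *Ier2*, *Ier3*, *Ier5* and *Dusp1*. They were chosen by name and by their FPKM (sequenced fragments per gene, scaled for transcript length and sequencing depth), because immediate early genes had higher values in both bone marrow (BM) samples than in fetal liver (FL), so the BM to FL difference of these genes is a description of the choice and was not tested. RNA was sequenced from LSK-SLAM cells, a sort for haematopoietic stem cells (HSCs) that keeps cells with Sca1, cKit and CD150 and removes those with lineage markers or CD48. The 4 samples were GFP+ and GFP- LSK-SLAM cells of the FL at embryonic day 14 and GFP+ and GFP- LSK-SLAM cells of adult BM, 1 sample each, with no replicates. All 4 came from mice with the *BRE-GFP* transgene, kept on a C57BL/6 background, in which a BMP-responsive element drives GFP while a cell receives BMP signals through Smad1/5, so GFP+ cells are BMP-activated at sorting and GFP- cells are not. The number of embryos or mice in a sample and the age of the adults used for RNA are not given in the sources used here. FL cells were released by mechanical disruption, whereas BM cells were flushed from tibias and femurs and spun over Ficoll. The lineage stain of BM also held an antibody to CD11b, which was not listed for FL. Tissue, age, preparation and lineage stain therefore cannot be told apart in any BM to FL difference. These are bulk samples, in which fewer cells expressing a gene and less of its RNA per cell cannot be told apart.

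Immediate early genes are transcribed within minutes of a stimulus, without new protein synthesis, when MAP kinase, calcium or stress signals reach factors already bound at their promoters. SRF with its Elk partners acts on the CArG box of the serum response element, and CREB and ATF proteins act on the cyclic AMP response element (CRE). Most of their mRNAs are short-lived. In the HSC compartment *Egr1* is known for its link with quiescence and retention in the BM niche and *Nr4a1* for restraint of proliferation. Tissue dissociation and cell sorting are also known to induce genes of this class.

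In these samples 9 of the 10 genes had higher FPKM in both BM samples than in both FL samples, and *Nr4a2* did not. Of the 13609 genes that reached FPKM 1 in any sample, 26.2% were placed in the same way. The FPKM of the 10 genes summed to 108.8 (GFP+) and 133.5 (GFP-) in FL, and to 1027 (GFP+) and 1287 (GFP-) in BM. Most of each sum came from *Ier2* and *Dusp1*, and without these the sums were 33.6, 30.9, 133.2 and 239.3. The number of the genes listed above 0 was 7 in each FL sample and 10 in each BM sample. The plot of all members by sample shows that *Ier2*, *Dusp1*, *Egr1*, *Nr4a1* and *Ier3* were the most abundant members in BM, whereas *Ier2* and *Ier3* led in the FL apart from *Dusp1* in its GFP- sample.

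**Figure D1:**
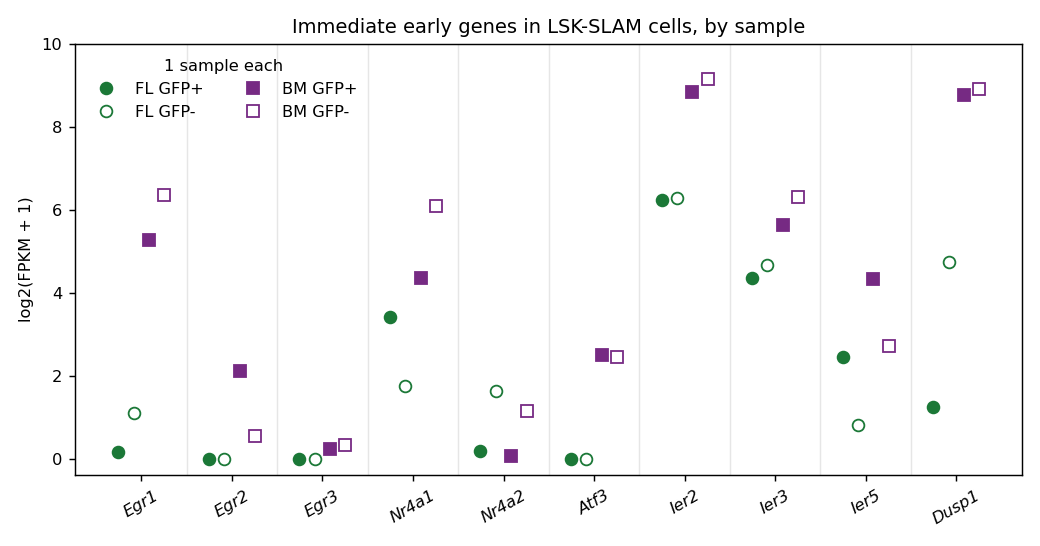
Level of each immediate early gene as log2(FPKM + 1) in the 4 samples, 1 point per sample with no replicates (circles FL, squares BM; filled GFP+, open GFP-). Both BM squares lie above both FL circles for every gene except *Nr4a2*, and *Egr2*, *Egr3* and *Atf3* are listed at 0 in both FL samples.

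The gate was checked first. LSK-SLAM sorting removes lineage-positive and CD48-positive cells, yet *Cd48* had FPKM values of 51.4 (GFP+) and 17.4 (GFP-) in FL, and 266.8 (GFP+) and 126.5 (GFP-) in BM. The FPKM of 8 granulocyte markers summed to 283.4 to 576.0 in FL and to 15587 to 60509 in BM, that of 5 B cell markers to 43.5 to 96.3 and 888.8 to 3286, and that of 5 erythroid markers to 880.8 to 960.9 and 2785 to 20046. Those of 6 macrophage markers (25.7 to 53.5 in FL and 73.3 to 229.7 in BM) and 5 T cell markers (4.04 to 5.39 and 31.5 to 132.7) were lower. These 5 sums were higher in BM GFP+ than in BM GFP- cells, whereas that of 4 megakaryocyte markers was lower there, at 319.2 (GFP+) and 424.4 (GFP-) in BM against 53.2 and 67.2 in FL. The 5 hepatocyte markers summed to 415.7 (GFP+) and 64.1 (GFP-) in FL, and to 79.8 and 53.5 in BM. Most of these BM sums was *Trf* alone, at 66.5 (GFP+) and 47.8 (GFP-), against 91.6 and 40.9 in FL. Of the 29 granulocyte, macrophage, B cell, T cell and erythroid markers, 26 were past 2-fold higher in BM than FL in GFP+ cells and 24 in GFP- cells, and none of the 29 was at 0 in BM. The 7 LSK-SLAM markers summed to 549.0 (GFP+) and 621.6 (GFP-) in FL, and to 348.9 and 438.0 in BM. Much of the BM sums was *Ly6a*, the Sca1 gene, at 286.2 (GFP+) and 145.5 (GFP-), and without it the sums were 529.3 and 575.3 in FL and 62.6 and 292.5 in BM. The other 6 were all lower in BM than FL in each fraction. Of these, *Procr* alone was at 0 in a sample (BM GFP+), and *Kit* had FPKM values of 102.3 (GFP+) and 150.3 (GFP-) in FL, and 22.2 (GFP+) and 76.6 (GFP-) in BM. All 8 fetal genes checked, such as *Lin28b*, were past 2-fold lower in BM in both fractions, as the tissue labels have it. The 29 markers above were not used to tell mature cells from progenitors. The part of cells with these markers in the BM to FL difference of the early genes was not tested. The comparison of GFP- cells gives that difference without the BM GFP+ sample.

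The promoters of 7 of the 10 genes (*Egr2*, *Nr4a1*, *Nr4a2*, *Atf3*, *Ier3*, *Ier5* and *Dusp1*) were taken from the RefSeq promoter table of build GRCm38.p6. Those of *Egr1*, *Egr3* and *Ier2* were not searched, so the motif counts below say nothing about these genes. The 250 bases before each start were searched on both strands for the CArG box, for the CRE (TGACGTCA), for its core TGACG, for the EGR site GCGGGGGCG and for the AP-1 site TGANTCA. The core lies within each full CRE and was counted there as well. Only *Egr2* has more than 1 start, with 5 windows, and the 7 genes have 11 windows. The *Egr2* windows that begin at 67537619, 67537620 and 67537680 largely overlap. They hold the same cores and the same CArG box, so the counts of windows below repeat these sites. At least 1 TGACG core was found in 7 of these 11 windows, against 17.8% of all 32851 windows of this length, and in 5 of the 7 genes, against 19.8% of all 27025 genes with a window. A full CRE was found only in *Dusp1* among them (1.77% of all genes and 1.55% of windows) and a CArG box only in *Egr2* (1.62% and 1.47%), in 4 of its 5 windows. The EGR site was found in *Nr4a1* (2.93% and 2.57%) and the AP-1 site in none of the 7 (7.82% and 6.75%). No motif of the 5 was found in the windows of *Ier3* and *Ier5*. The 250 bases of *Dusp1*, *Nr4a1*, *Atf3* and *Nr4a2* are shown because they hold the cores, in *Nr4a2* beside a BM to FL difference of the other direction. For *Egr2* a stretch of 30 bases, from 80 to 51 bases before 1 of its 5 listed starts, is shown for its CArG box and core. Capitals mark the CArG box, the CRE and the TGACG core on either strand. A match is only a run of letters and no binding was measured.
*Dusp1* (chr17:26508473-26508722, minus strand): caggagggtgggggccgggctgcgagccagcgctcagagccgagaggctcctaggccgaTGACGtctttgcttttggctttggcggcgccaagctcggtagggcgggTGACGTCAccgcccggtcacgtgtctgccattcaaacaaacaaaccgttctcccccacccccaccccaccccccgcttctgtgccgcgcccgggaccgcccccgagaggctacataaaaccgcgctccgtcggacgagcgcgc
*Nr4a1* (chr15:101266596-101266845, plus strand): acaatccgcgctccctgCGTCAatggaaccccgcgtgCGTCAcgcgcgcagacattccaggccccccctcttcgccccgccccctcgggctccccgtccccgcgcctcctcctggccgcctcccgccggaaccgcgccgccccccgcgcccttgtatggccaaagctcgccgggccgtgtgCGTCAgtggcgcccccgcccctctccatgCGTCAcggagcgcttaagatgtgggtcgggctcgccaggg
*Atf3* (chr1:191183334-191183583, minus strand): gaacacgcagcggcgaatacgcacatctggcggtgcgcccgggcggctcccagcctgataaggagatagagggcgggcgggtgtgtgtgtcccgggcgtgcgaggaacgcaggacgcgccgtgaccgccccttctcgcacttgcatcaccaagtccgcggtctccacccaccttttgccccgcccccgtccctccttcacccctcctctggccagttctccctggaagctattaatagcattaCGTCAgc
*Nr4a2* (chr2:57124004-57124253, minus strand): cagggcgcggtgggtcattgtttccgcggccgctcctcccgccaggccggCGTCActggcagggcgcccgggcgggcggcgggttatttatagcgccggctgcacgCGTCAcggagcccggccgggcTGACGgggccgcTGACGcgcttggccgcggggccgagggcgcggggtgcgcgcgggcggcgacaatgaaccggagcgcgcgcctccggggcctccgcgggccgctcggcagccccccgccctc
*Egr2* (chr10:67537789-67537818, plus strand): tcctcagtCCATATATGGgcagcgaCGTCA

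The gene positions that follow are those of GENCODE vM1 on NCBI37 (mm9), the build that the study's methods name. The deposited tables hold no coordinates, and the submitters' processing notes name mm10. *Dusp1* (chromosome 17, 26642535 to 26645464, minus strand) encodes a nuclear phosphatase that switches off MAP kinases and so ends the signal that induced it. Its FPKM values were 1.37 (GFP+) and 25.8 (GFP-) in FL, and 435.2 (GFP+) and 478.0 (GFP-) in BM. The BM samples were close to each other and both were far above the FL samples, which differed from each other more than for any other member detected in both. BM exceeded FL 317-fold in GFP+ cells and 18.5-fold in GFP- cells. In FL, GFP- cells had 18.8 times the FPKM of GFP+ cells, and in BM 1.10 times. Among all symbols ranked by FPKM, *Dusp1* stood at ranks 9578 (GFP+) and 3818 (GFP-) in FL, against 338 and 232 in BM. The full CRE and the TGACG core printed above lie within the 250 bases before its start.

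*Ier2* (chromosome 8, 87185230 to 87186751, minus strand) encodes a small nuclear protein of the early response. Its FPKM values were 73.9 (GFP+) and 76.8 (GFP-) in FL, and 459.0 (GFP+) and 570.0 (GFP-) in BM, the highest of the 10 genes in every sample. The fractions of a tissue were alike, and the tissues did not overlap, with 6.21-fold more in BM for GFP+ and 7.42-fold more for GFP- cells. *Ier5* (chromosome 1, 156943497 to 156946766, minus strand) encodes a nuclear protein with an amino-terminal region related to that of Ier2, with a known part in the heat shock response. Its FPKM values were 4.44 (GFP+) and 0.764 (GFP-) in FL, and 19.1 (GFP+) and 5.53 (GFP-) in BM. *Ier5* was thus higher in the GFP+ sample of each tissue, 5.81-fold in FL and 3.46-fold in BM, while BM exceeded FL 4.31-fold in GFP+ and 7.24-fold in GFP- cells. FL GFP+ and BM GFP- cells had close values, so the tissues were only just separate. *Ier3* (chromosome 17, 35958629 to 35959868, plus strand) shares the name but not the protein family, and encodes a stress-induced regulator of survival also known as IEX-1. Its FPKM values were 19.3 (GFP+) and 24.5 (GFP-) in FL, and 49.1 (GFP+) and 79.00 (GFP-) in BM. BM exceeded FL 2.54-fold in GFP+ and 3.23-fold in GFP- cells, the smallest difference in GFP- cells among the members that were higher in BM and above 0 in FL.

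The Egr proteins are zinc finger transcription factors that bind a shared GC-rich site and are restrained by the Nab corepressors. *Egr1* (chromosome 18, 35020861 to 35024638, plus strand) had FPKM values of 0.110 (GFP+) and 1.16 (GFP-) in FL, and 37.4 (GFP+) and 80.9 (GFP-) in BM. It was near the bottom of the scale in FL, where it stood at ranks 11157 (GFP+) and 11270 (GFP-), against 3327 and 1544 in BM. BM exceeded FL 338-fold in GFP+ and 69.7-fold in GFP- cells, and GFP- cells exceeded GFP+ cells 10.5-fold in FL and 2.17-fold in BM. The 338-fold and 10.5-fold values rest on the FL GFP+ value of 0.110, whose precision is unknown because read counts were not used here.

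*Egr2* (chromosome 10, 66998223 to 67004936, plus strand), which acts with *Egr3* in lymphocyte tolerance and in myeloid cells, was listed at 0 in both FL samples and in BM at 3.30 (GFP+) and 0.460 (GFP-). Within BM the GFP+ sample was 7.18-fold above the GFP- sample, the reverse of *Egr1*. *Egr3* (chromosome 14, 70477252 to 70479964, plus strand) was listed at 0 in both FL samples and in BM at 0.176 (GFP+) and 0.255 (GFP-). It was the only member under an FPKM of 1 in every sample. No fold against FL was computed for either gene, since an exact 0 in FPKM tables can be a failed estimate as well as a missing transcript. *Procr*, a stem cell surface gene at 60.8 to 113.5 in the other samples, was listed at 0 in BM GFP+ cells.

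The Nr4a proteins are orphan nuclear receptors whose activity is set mainly by their own abundance. *Nr4a1* (chromosome 15, 101097277 to 101105223, plus strand) had FPKM values of 9.59 (GFP+) and 2.36 (GFP-) in FL, and 19.5 (GFP+) and 67.5 (GFP-) in BM. BM exceeded FL 28.6-fold in GFP- cells but 2.04-fold in GFP+ cells, just past 2-fold. The fractions differed in opposite directions, with GFP+ cells 4.06-fold higher in FL and 3.46-fold lower in BM. *Nr4a2* (chromosome 2, 56959241 to 56976414, minus strand) had FPKM values of 0.140 (GFP+) and 2.10 (GFP-) in FL, and 0.0410 (GFP+) and 1.22 (GFP-) in BM. It was the member outside the pattern that led to the choice, with BM 3.42-fold below FL in GFP+ and 1.72-fold below in GFP- cells. In each tissue it was lower in GFP+ cells, 15.0-fold in FL and 29.8-fold in BM, from values that were at most 2.10. The members nearest to that boundary on the other side were *Nr4a1* at 2.04-fold in GFP+ and *Ier3* at 3.23-fold in GFP- cells, among those above 0 in FL. The third gene of the family, *Nr4a3*, was listed at 0 in all 4 samples. *Atf3* (chromosome 1, 192994175 to 193007219, minus strand), a stress-induced bZIP factor that mostly represses transcription, was listed at 0 in both FL samples and in BM at 4.64 (GFP+) and 4.47 (GFP-). Its BM values were nearly equal, with a ratio of 1.04 between the fractions, which became 0.757 when every sample was scaled to the same FPKM total.

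With the study's threshold of 2-fold on the deposited FPKM, 9 of the 10 genes were called higher in BM in GFP+ cells and 9 in GFP- cells, where a gene at 0 in FL counts as called. Among all genes 32.1% were called higher in BM in GFP+ and 20.0% in GFP- cells, and 12.2% in both fractions. The 1 member called lower was *Nr4a2* in GFP+ cells (24.1% of all genes), and no member was called lower in GFP- cells (0 of 10; 19.2% of all genes). These counts, and the medians and places in the distribution that follow, use the values that chose the genes and nothing is read from them. The median log2 ratio of (FPKM + 1) in BM over FL was 1.996 over the 10 genes in GFP+ cells, with a range of -0.13 to 7.52, against 0.029 over all genes. In GFP- cells the median was 2.17, with a range of -0.48 to 5.24, against 0.034 over all genes. *Egr1* and *Dusp1* lay far out in the distribution of all genes in both fractions, while *Nr4a1* did so only in GFP- cells. Scaling every sample to the same FPKM total moved the median of all genes by -0.25 in GFP+ and -0.36 in GFP- cells. It left 7 of the 10 genes called in GFP+ cells, because *Nr4a1* went to 1.32-fold and *Ier3* to 1.64-fold.

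**Figure D2:**
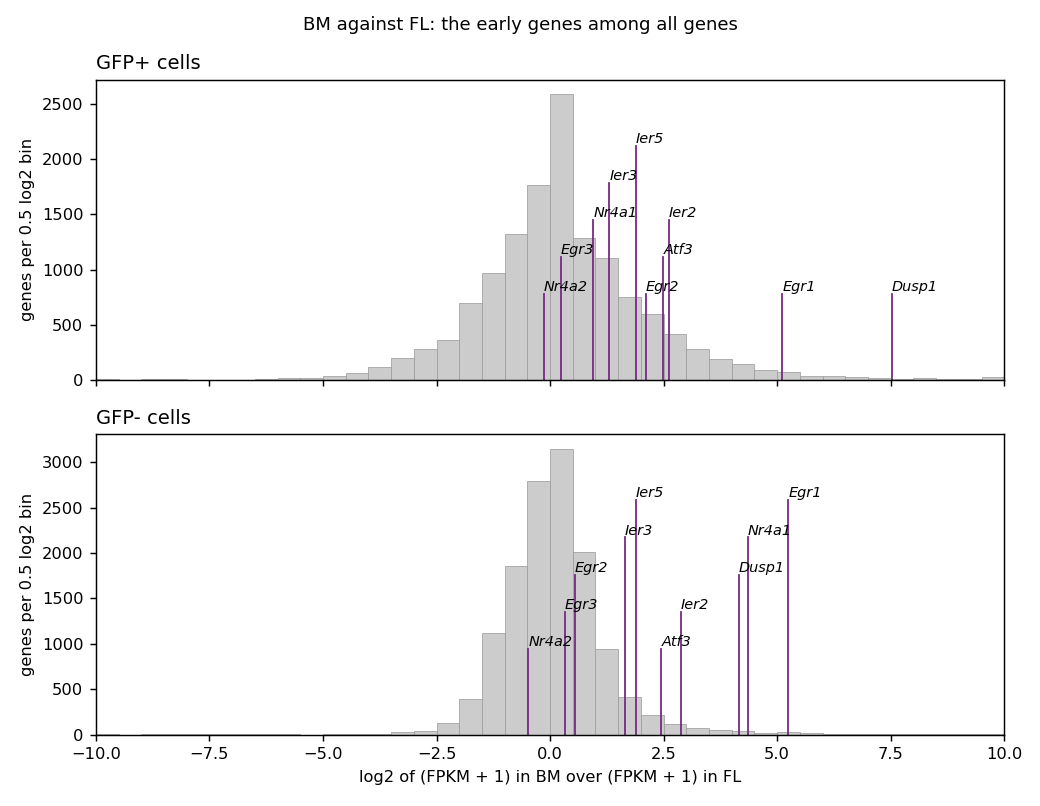
Distribution over 13609 genes of the log2 ratio of (FPKM + 1) in BM over FL, in GFP+ (top) and GFP- cells (bottom), in bins of 0.5 with values past 10 put in the end bins. Lines mark the members, at heights set only to keep the names apart; *Egr1* lies at 5.11 and 5.24, *Dusp1* at 7.52 and 4.16, and *Nr4a1* at 0.95 and 4.35.

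The GFP contrast within a tissue took no part in the choice of the genes and asks whether BMP-activated and non-activated cells differ in the early response. In FL, 2 of the 10 genes were called higher in GFP+ cells (*Nr4a1* and *Ier5*; 16.6% of all genes) and 3 lower (*Egr1*, *Nr4a2* and *Dusp1*; 28.0% of all genes). In BM, 2 were called higher in GFP+ cells (*Egr2* and *Ier5*; 19.7%) and 3 lower (*Egr1*, *Nr4a1* and *Nr4a2*; 22.9%). These shares were near those of all genes, and no common direction of the early genes was seen. The median log2 ratio of GFP+ over GFP- cells was -0.028 in FL and -0.22 in BM, against 0 and 0.026 over all genes. Past 2-fold in both tissues were *Ier5*, higher in GFP+ cells (3.26% of all genes), and *Egr1* and *Nr4a2*, lower in GFP+ cells (8.98%). Fewer genes were above 0 in the GFP+ sample of each tissue, 12372 against 15556 in FL and 13489 against 17345 in BM. The part of this difference in the calls was not tested. On the log2(FPKM + 1) scale the ratio of *Ier5* was 1.62 in each tissue, a likeness that depends on the pseudocount, since it was 2.39 in FL and 1.77 in BM with 0.1 in place of 1. That of *Egr1* was -0.96 in FL and -1.09 in BM with a pseudocount of 1. The largest contrasts between the tissues were those of *Nr4a1*, 1.66 in FL and -1.74 in BM, and *Dusp1*, -3.50 in FL and -0.13 in BM. With totals made equal, *Ier3* was also called lower in BM GFP+ cells, at 2.21-fold.

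**Figure D3:**
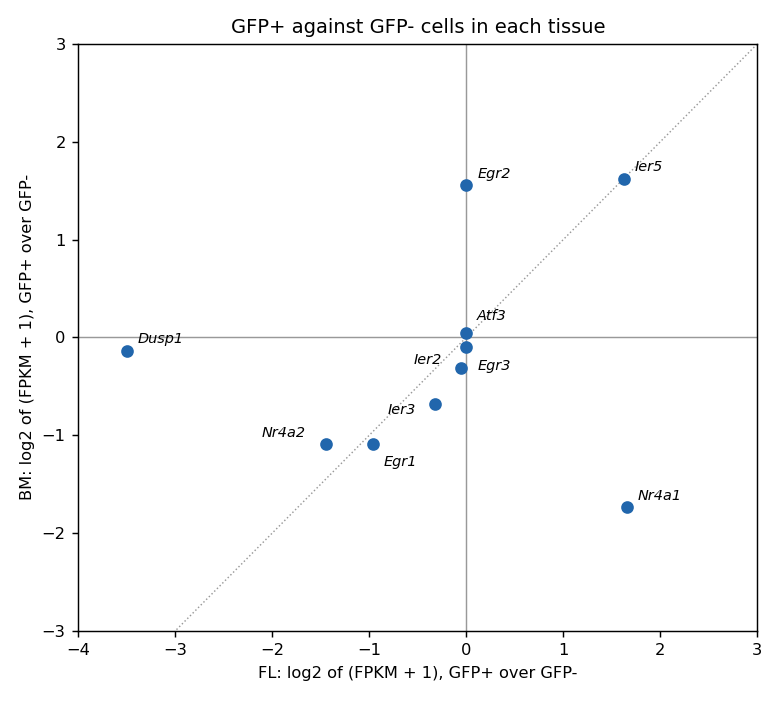
Log2 ratio of (FPKM + 1) in GFP+ over GFP- cells for each member in FL (horizontal) and BM (vertical), 1 sample per fraction and tissue; the dotted line marks equal ratios. *Ier5* lies on the line at 1.62 with this pseudocount of 1 (2.39 and 1.77 with 0.1), *Nr4a1* in the quadrant of opposite directions, and *Dusp1* at -3.50 in FL beside -0.13 in BM.

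A fit over all genes with limma, with GFP as the effect and tissue as a block, took the tissues as the only repeat of the GFP contrast, with 1 residual degree of freedom. It called 13 of 11707 genes at a Benjamini-Hochberg adjusted p under 0.05, or 0.111%, and none of the 8 members that passed its filter (0 of 8; *Egr2* and *Egr3* did not pass). The lowest adjusted p of a member in limma was 0.780, for *Dusp1*. Its limma log2 difference was -1.82 (SE 0.69, unadjusted p = 0.029). The log2 ratio of *Dusp1* in GFP+ over GFP- cells was -3.50 in FL and -0.13 in BM, so nearly all of this difference came from FL. For *Ier5* the limma difference was 1.62 (SE 0.90, adjusted p = 0.913), for *Nr4a2* -1.27 (SE 0.63, adjusted p = 0.854) and for *Egr1* -1.03 (SE 0.83, adjusted p = 0.970). At an unadjusted p under 0.05 limma counted 732 of all genes and 1 member. With this design a difference that misses the threshold is not shown to be absent.

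Cell type markers also differed between the BM fractions. The 29 granulocyte, macrophage, B cell, T cell and erythroid markers were all higher in BM GFP+ than BM GFP- cells, 22 of them past 2-fold, with a median log2 ratio of 1.87. Of the 4 megakaryocyte markers 1 was higher and 3 lower, none past 2-fold, with a median of -0.39. Of the 10 early genes, 2 were past 2-fold higher in BM GFP+ cells, 3 past 2-fold lower and 5 neither, shares near those of all genes given above. The part of any of these cell types in the GFP contrast of the early genes was not tested. In FL, 17 of the 29 markers were higher in GFP+ cells, 11 of them past 2-fold, with a median log2 ratio of 0.20.

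**Figure D4:**
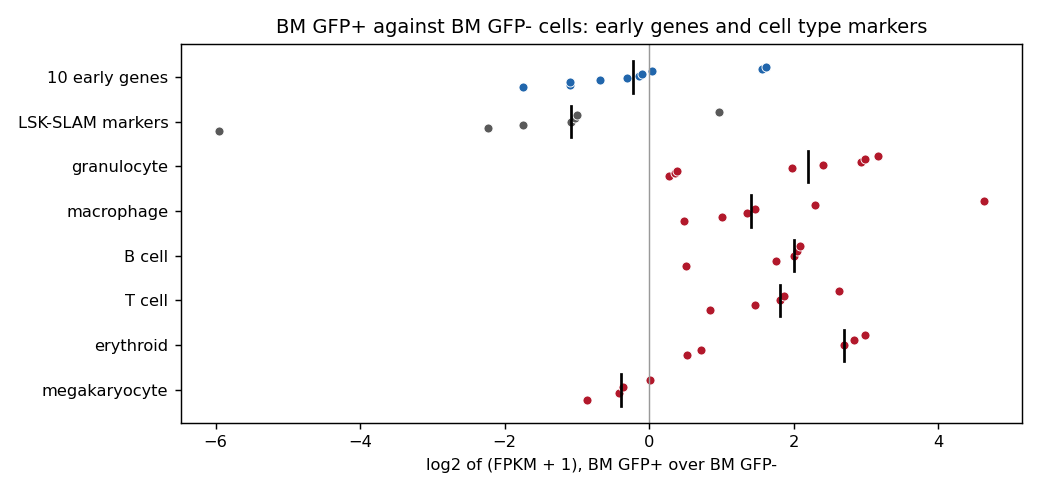
Log2 ratio of (FPKM + 1) in BM GFP+ over BM GFP- cells for the early genes, stem cell markers and blood lineage markers. Each gene is 1 point, and vertical bars mark the median of each list. All 29 granulocyte, macrophage, B cell, T cell and erythroid markers lie right of 0, while the early genes have a median of -0.22, the 4 megakaryocyte markers one of -0.39 and the LSK-SLAM markers one of -1.08.

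The wider early response was described with lists of genes taken from general knowledge, chosen with earlier results of these data known. The AP-1 and other immediate early genes belong to the class whose higher BM values led to the choice. Their BM to FL counts and medians are thus descriptions, and nothing is read from them. Of 7 AP-1 genes, 5 (*Fos*, *Fosb*, *Jun*, *Junb* and *Jund*) were past 2-fold higher in BM in both fractions, with *Fos* at 5.52 (GFP+) and 1.99 (GFP-) in FL, and 768.0 (GFP+) and 638.4 (GFP-) in BM. Of 30 other immediate early genes, 9 were past 2-fold higher in BM in both fractions, against 12.2% of all genes. The most abundant of the 30 was *Zfp36*, whose product destabilises AU-rich mRNAs of this class, at 16.3 (GFP+) and 12.6 (GFP-) in FL, and 219.7 (GFP+) and 134.6 (GFP-) in BM. *Klf2*, a factor of quiescence in lymphocytes, was at 0 (GFP+) and 0.749 (GFP-) in FL, and 127.0 (GFP+) and 32.3 (GFP-) in BM. *Klf10*, a TGF-beta-induced factor, had its higher values in FL, at 68.5 (GFP+) and 42.6 (GFP-) in FL, and 30.95 (GFP+) and 35.1 (GFP-) in BM. The median log2 ratio of BM over FL for the 30 genes was 0.97 in GFP+ and 0.43 in GFP- cells. Between GFP+ and GFP- cells, 4 of the 30 were past 2-fold higher and 12 lower in FL (16.6% and 28.0% of all genes), and 7 higher and 5 lower in BM (19.7% and 22.9%).

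The upstream genes of the route run from Ras through MAP kinases to SRF, Elk, CREB and related factors. Of these 26 genes none was past 2-fold higher in BM in both fractions (0 of 26, against 12.2% of all genes). In GFP+ cells 4 were higher and 5 lower in BM (32.1% and 24.1% of all genes), and in GFP- cells 3 were higher and 6 lower (20.0% and 19.2%), with median log2 ratios of -0.050 and -0.042. *Rps6ka1*, which encodes the ERK-activated kinase RSK1, had FPKM values of 115.3 (GFP+) and 83.7 (GFP-) in FL, and 155.8 (GFP+) and 86.99 (GFP-) in BM. The MEK genes, which encode the kinases that activate ERK, were highest in BM GFP+ and lowest in FL GFP- cells. *Map2k1* was at 88.2 (GFP+) and 38.1 (GFP-) in FL, and 126.0 (GFP+) and 79.9 (GFP-) in BM, and *Map2k2* at 76.4 (GFP+) and 53.8 (GFP-) in FL, and 101.6 (GFP+) and 76.7 (GFP-) in BM. *Srf* itself was low, at 0 (GFP+) and 1.68 (GFP-) in FL, and 1.34 (GFP+) and 0.962 (GFP-) in BM. Such mRNA levels do not report the activity of the proteins.

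Among 9 phosphatases of the *Dusp1* family, only *Dusp2*, another early nuclear one, was past 2-fold higher in BM in both fractions (12.2% of all genes). *Dusp2* was at 32.3 (GFP+) and 43.4 (GFP-) in FL, and 211.3 (GFP+) and 213.1 (GFP-) in BM. *Dusp6*, which acts on ERK in the cytoplasm, was at 36.4 (GFP+) and 24.1 (GFP-) in FL, and 41.7 (GFP+) and 52.1 (GFP-) in BM. *Dusp5*, a nuclear ERK phosphatase, was at 2.25 (GFP+) and 2.67 (GFP-) in FL, and 20.3 (GFP+) and 2.52 (GFP-) in BM, so that BM GFP+ cells stood apart. Of 7 partner and feedback genes of Egr and Nr4a, 2 were past 2-fold higher in BM in both fractions (12.2% of all genes). These were *Nab2*, an Egr-induced corepressor, at 0.172 (GFP+) and 0.648 (GFP-) in FL, and 3.64 (GFP+) and 3.43 (GFP-) in BM, and *Ptgs2*, which encodes COX-2, listed at 0 in both FL samples and at 1.34 and 0.610 in BM. The related corepressor gene *Nab1* had the opposite order, at 3.32 (GFP+) and 5.26 (GFP-) in FL, and 0.754 (GFP+) and 3.05 (GFP-) in BM. *Rxrb*, a receptor of the family with which Nr4a1 and Nr4a2 can pair, was at 3.39 (GFP+) and 22.9 (GFP-) in FL, and 14.7 (GFP+) and 19.1 (GFP-) in BM. The most abundant was *Id3*, an inhibitor of E proteins, at 96.6 (GFP+) and 97.03 (GFP-) in FL, and 119.8 (GFP+) and 46.6 (GFP-) in BM.

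Of 10 heat shock genes, whose induction is a sign of proteotoxic stress, 2 were past 2-fold higher in BM in both fractions (12.2% of all genes). These were *Hspa1a*, at 0 (GFP+) and 1.92 (GFP-) in FL, and 10.4 (GFP+) and 5.69 (GFP-) in BM, and *Hspa1b*, which stayed under FPKM 1 in all samples. The abundant chaperone gene *Hspa8* was at 2486 (GFP+) and 2055 (GFP-) in FL, and 2249 (GFP+) and 2949 (GFP-) in BM, and the summed FPKM of the 10 was 4681 and 4131 in FL and 4138 and 5370 in BM. Of 10 reference genes, 1 (*B2m*) was past 2-fold higher in BM in both fractions, against the same 12.2% of all genes. The median log2 ratio of the reference genes was 0.37 in GFP+ and 0.53 in GFP- cells. Without a fold threshold, 7 of these 10 had higher FPKM in both BM samples than in both FL samples, against 26.2% of all genes. *Actb*, the most abundant of them, was at 4629 (GFP+) and 4057 (GFP-) in FL, and 9195 (GFP+) and 5488 (GFP-) in BM.

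**Figure D5:**
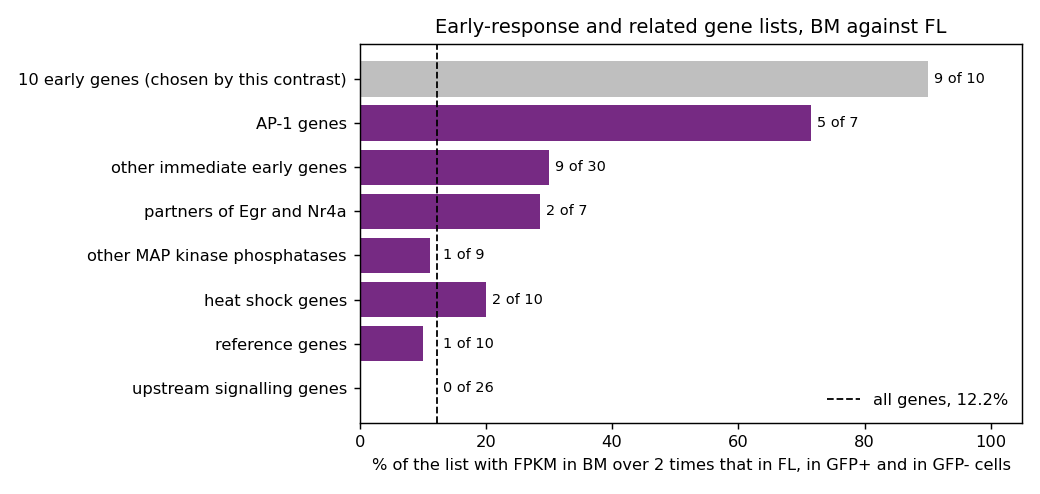
Percentage of each gene list with an FPKM in BM more than 2 times that in FL in both GFP+ and GFP- cells, with the count beside each bar and a dashed line at the 12.2% of all 13609 genes. The grey bar of the 10 early genes is fixed by their choice. The AP-1 (5 of 7) and other immediate early genes are of the class that led to this choice, so these bars are descriptions too. The upstream signalling genes reach 0 of 26.

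The genes whose profile over the 4 samples was nearest to the median profile of the members were sought among 6839 other genes that reached FPKM 10 in 2 samples or more. Distances are Euclidean, between log2(FPKM + 1) values centred on each gene's mean. The nearest 8 were *Tifa* (distance 0.265), *H2-T23*, *Mt1*, *Glipr1*, *Lamtor4*, *Pdcd4*, *Smim5* and *Psmb8* (distance 0.349), against a median distance of 2.31 over all candidates. *Tifa*, an adaptor of innate immune signalling, had FPKM values of 13.4 (GFP+) and 10.6 (GFP-) in FL, and 67.3 (GFP+) and 54.97 (GFP-) in BM. *Mt1*, a metallothionein gene, was at 48.3 (GFP+) and 39.5 (GFP-) in FL, and 229.6 (GFP+) and 183.9 (GFP-) in BM. None of the 8 was on the lists of immediate early genes above, and a profile over 4 samples is a weak measure of likeness. The members themselves lay at distances from 0.462 for *Atf3* and 0.743 for *Ier2* to 3.26 for *Egr1* and 4.60 for *Dusp1*, so that the median profile described some members poorly.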

How the data were processed

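RNA of 4 sorted samples was prepared by the SMARTer protocol and sequenced on a HiSeq2000. The authors aligned the reads (Bowtie, TopHat), assembled and quantified transcripts (Cufflinks 2.2.1, Cuffquant, with bias and multi-read corrections) and made the deposited FPKM with Cuffnorm's geometric scaling over all samples. Read counts were not used here, so depth per gene and the precision of a value are unknown here. The methods name NCBI37/mm9 and the submitters' processing notes mm10. FPKM summed to 541453 to 1000850 per sample. Genes above 0 numbered 12372 (GFP+) and 15556 (GFP-) in FL, and 13489 (GFP+) and 17345 (GFP-) in BM. Samples were grouped by their labels.

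Folds use the deposited FPKM and the study's 2-fold threshold, and log2 ratios use FPKM + 1, which understates changes of low genes. Shares of all genes are over those that reached FPKM 1 in any sample. With 1 sample per group no test was made between samples. The GFP effect was fitted with limma 3.58.1 (R 4.3.3, lmFit, eBayes with trend, tissue as block, Benjamini-Hochberg) on log2(FPKM + 1) of genes that reached FPKM 1 in 2 samples or more. The residual of this fit is the difference of the GFP effect between the tissues. The code of the fit and of the 2-fold rule was run on simulated data with small noise. In the simulation of the fit the GFP effect was the same in both tissues. Such runs check the code and not how the fit behaves on these data. The rest used Python 3.11.15. Alternatives were a pseudocount of 0.1, thresholds of 1.5-fold and 4-fold, other filters, 3 rescalings, and limma without trend or block. The members and lists were chosen with earlier results of these data known. Named were all members, up to 3 of the most abundant genes of each list not made of cell type markers, genes behind some counts of 5 or fewer, and the 8 nearest profiles. *Nr4a3*, *Srf*, *Procr*, *Kit*, *Ly6a*, *Trf* and *Lin28b* were named after their values were seen.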

Additional observations from a re-analysis of the deposited data

Results flagged for a closer look

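*Nr4a1* is listed because its GFP contrast went past 2-fold in opposite directions in the tissues. The share of all genes that did so was not computed, so whether this sets *Nr4a1* apart is unknown. GFP+ cells had an FPKM of 9.59 against 2.36 for GFP- cells in FL, but 19.5 against 67.5 in BM. The log2 ratio of (FPKM + 1) in GFP+ over GFP- cells was lower in BM than in FL by a difference of -3.39. With 1 sample per fraction and tissue this difference was not tested. It kept both directions past 2-fold when every sample was scaled to the same FPKM total, at 3.40-fold higher in FL and 4.74-fold lower in BM.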

How the results depend on the processing

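No paired analysis was possible because each group has 1 sample and the labels carry no replicate numbers, other than the pairing of fractions within a tissue that the limma fit uses. No replicate could be left out. A ratio moves here when it changes by more than 1.5-fold, a count or share when it does so by more than 1.5 times. Of the counts, shares and medians, limma counts included, 22 moved and 96 did not, and of the ratios of single genes 20 moved and 140 did not. Limma effects of single genes were compared only by direction and side of the threshold, by which 2 changed sign and 43 changed neither, although with a pseudocount of 0.1 the effect of *Nr4a2* went from -1.27 to -3.21 and that of *Egr1* from -1.03 to -1.85.

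At a threshold of 1.5-fold, 1 gene of the 10 (*Nr4a2*) was lower in BM in GFP- cells, and the shares of all genes were 30.2% higher in BM in GFP- cells, 26.7% higher in FL GFP+ cells and 30.1% higher in BM GFP+ cells. At 4-fold, 0 of the 10 were lower in BM in GFP+ cells, and 1 was higher (*Egr2*) and 1 lower (*Nr4a2*) in BM GFP+ than BM GFP- cells. The shares of all genes at 4-fold were 13.9% lower in BM in GFP+ cells, 11.9% higher and 7.91% lower in BM in GFP- cells, 6.72% higher in FL GFP+ cells and 7.72% higher in BM GFP+ cells. Over genes that reached FPKM 10 in a sample, 11.99% were lower in BM in GFP- cells, 16.5% lower in FL GFP+ and 14.4% lower in BM GFP+ cells. With totals made equal, 1 of the 10 (*Nr4a2*) and 29.3% of all genes were lower in BM in GFP- cells, and 12.3% of all genes were higher in BM GFP+ cells, with medians of all genes moved by -0.15 in FL and -0.31 in BM for the GFP contrast. With a pseudocount of 0.1 the median log2 ratio of the 10 genes in GFP- cells was 2.80.

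The limma count over all genes was 1 with a pseudocount of 0.1, 0 without trend (685 at an unadjusted p under 0.05) and 4 without the tissue block. The cause of these changes was not tested. In limma the *Nr4a1* effect became 0.097 with a pseudocount of 0.1, and the *Atf3* effect -0.16 with totals made equal, both with an adjusted p of 0.992. The lowest adjusted p of a member ranged from 0.613 to 0.9998 over the alternatives. Read counts were not used here, so the depth behind low values such as those of *Nr4a2*, *Egr3* and FL *Egr1* is unknown.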
